A study of Mus musculus with 12 samples.

Results

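The standard proteasome subunits are the proteins that build the constitutive 26S proteasome, the machine that degrades ubiquitin-tagged proteins. They were taken here as the protein-coding genes whose symbol begins with Psma, Psmb, Psmc or Psmd and a number, leaving out Psmb8, Psmb9 and Psmb10, and listed in all 3 comparison tables. The rule, which uses no measured value, found 36 genes among the 20884 genes listed in all 3 tables. Of these, 31 belong to the core particle or to the base or lid of the regulatory particle. The remaining 5 are the assembly factors Psmd5, Psmd9 and Psmd10, the testis-restricted subunit Psma8, and Psmc3ip, a meiotic recombination factor that matches the rule by its symbol alone.

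The cells were bone marrow-derived macrophages of C57BL/6 male mice aged 8 to 16 weeks, cultured for 7 days with 10% serum and with M-CSF, the macrophage growth factor, at 10 ng/mL, which stayed in all cultures. One group was harvested after 4 h of monophosphoryl lipid A (MPLA), an agonist of Toll-like receptor 4 derived from bacterial lipopolysaccharide, one after 24 h of MPLA, one 3 d after the end of priming, and the control group saw no MPLA. Each of the 4 groups had 3 polyadenylated RNA libraries, and the labels do not say whether they came from separate animals or cultures, so p-values reflect only library-to-library spread, which may be technical. The labels give neither the priming time of the 3 d group nor when its controls were harvested. Only the authors' comparisons of each MPLA group with the same 3 controls were used, without values per library, so no value per sample can be given and the groups' overlap cannot be shown.

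In background terms, the core particle is a barrel with outer rings of alpha subunits, which gate the entry, and inner rings of beta subunits, of which Psmb5, Psmb6 and Psmb7 carry the proteolytic sites. The regulatory particle has a base, whose ATPases (Psmc genes) unfold substrates, and a lid, whose subunit Psmd14 removes ubiquitin. In macrophages exposed to interferon or to bacterial products, Psmb8, Psmb9 and Psmb10 replace the standard catalytic subunits and form the immunoproteasome, which serves the making of peptides for MHC class I.

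All changes are MPLA group over control on the log2 scale. Unless edgeR is named, they are the DESeq2 values in the authors' deposited tables. A gene was called when its deposited DESeq2 adjusted p was under 0.05. Errors are approximate standard errors (SE) that assume the deposited p came from a two-sided Wald test. Depth per library is unknown. The depth of the MPLA libraries over that of the controls was estimated as 0.859 at 4 h, 0.934 at 24 h and 2.32 at 3 d. The estimate came from the median gap between the edgeR and unscaled log2 values in the authors' deposited tables. It holds only if edgeR scaled by library size alone, which is not stated. The zero of the scale depends on the tool: relative to DESeq2, the edgeR log2 values in the authors' deposited tables were lower by a median of 0.94 at 4 h, 0.41 at 24 h and 0.13 at 3 d. The median of all tested genes was -0.04, -0.05 and -0.02 with DESeq2 and -0.97, -0.46 and -0.15 by edgeR in the authors' deposited tables at 4 h, 24 h and 3 d. Differences between genes within a table do not depend on that choice.

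Markers of the labelled cell type were present, with all 7 macrophage markers listed, and they moved as well: 5 were called higher and 1 lower at 4 h, 3 and 4 at 24 h, and 4 and 3 at 3 d with DESeq2 in the authors' deposited tables. There edgeR called 2 higher and 5 lower at 4 h, 2 and 5 at 24 h, and 3 and 3 at 3 d, so the 4 h balance turned with the scaling. Of all tested genes DESeq2 called 31.8% higher and 31% lower at 4 h. These shares were 32.4% and 32.2% at 24 h, and 29.5% and 25.8% at 3 d. Fcgr1 was higher at all 3 times (3.07, 3.70 and 0.98 in the authors' deposited tables) and Csf1r, the M-CSF receptor, lower (-1.01, -1.52 and -0.54). Other macrophage markers were less steady. Mertk had 0.79 at 4 h but was the lowest at 24 h (-1.69) by DESeq2 in the authors' deposited tables. At 3 d Lyz2 was the lowest (-1.43) and Adgre1 the highest (1.17) there. Of 25 markers of other cell types, 19, 18 and 18 were listed at 4 h, 24 h and 3 d, and the counts called higher and lower were 5 and 3 at 4 h, 3 and 7 at 24 h, and 2 and 2 at 3 d with DESeq2 in the authors' deposited tables. Among them Ighm of B cells was lower (-1.75, -8.98 and -6.42 in the authors' deposited tables), while the B cell markers Ms4a1 and Cd79a were not called or had no adjusted p. Kit of mast cells was lower (-1.42, -4.30 and -0.77 in the authors' deposited tables), and the dendritic cell marker Xcr1 (3.93 and 3.08) and the endothelial markers Cdh5 and Pecam1 were called higher at 4 h and 24 h. Pecam1 was also called higher at 3 d (1.87), and Cdh5 was not. The T cell marker Cd4 was called lower at 4 h (-0.91) and 24 h (-1.35) but higher at 3 d (1.01) with DESeq2 in the authors' deposited tables. At 4 h the fibroblast marker Pdgfra, listed at 0 in the controls, was called higher (4.34), while Col1a1 and Col1a2 were not called. The other dendritic cell markers did not follow Xcr1. Zbtb46 was called higher at 4 h (1.19) but lower at 24 h (-1.50) with DESeq2 in the authors' deposited tables. Flt3 was not called at 4 h and had no adjusted p at 24 h. The tables give no levels, so summed marker levels per group were not available, and the part of these shifts in the results below was not tested.

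Proteasome subunit transcripts stood above the typical gene at both times during MPLA, by a wider margin at 24 h than at 4 h, and the margin was narrow at 3 d. After 4 h of MPLA, 32 of the 36 genes were called higher and 1 lower with DESeq2 in the authors' deposited table, against 31.8% and 31% of all tested genes. This direction at 4 h turned with the scaling, since edgeR called 12 higher and 21 lower in the same deposited table of the authors, against 13.5% and 50.1% of all genes listed. Measured from the median tested gene, the members' median was 0.77 higher with either tool in the authors' deposited table. All 31 core, base and lid subunits lay above that median with both tools.

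At 24 h the direction held with both tools. In the authors' deposited table DESeq2 called 33 of the 36 genes higher and 1 lower, against 32.4% and 32.2% of tested genes, and edgeR called 32 higher and 3 lower, against 16.2% and 41.8% of listed genes. All 31 core, base and lid subunits were called higher with DESeq2 and 30 of them with edgeR, the exception being the lid subunit Psmd8. By DESeq2 the members' median was 1.16, and by edgeR 0.75, in the authors' deposited table, in both cases 1.21 above the median tested gene.

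At 3 d after priming, 22 of the 36 genes were called higher and 2 lower with DESeq2 in the authors' deposited table, against 29.5% and 25.8% of tested genes. With edgeR 15 were called higher and 6 lower there, against 15.5% and 27.7% of the genes listed in the authors' deposited table. By DESeq2 the members' median was 0.18, and by edgeR 0.05, in the authors' deposited table, 0.20 above the median tested gene with both.

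Other deposited calls gave these counts for the 36 genes. By the baySeq error rate under 0.05 in the authors' deposited tables, 29 were higher and 2 lower at 4 h (23.3% and 30.5% of listed genes), 33 and 2 at 24 h (19.6% and 31.3%), and 11 were higher at 3 d with none lower (11.6% and 4.84%). Adjusting the deposited DESeq2 p-values of the authors' deposited tables over all genes listed gave 32 higher and none lower at 4 h (25.1% and 24.4% of listed genes), 33 and 1 at 24 h (23.9% and 23.4%), and 20 and 2 at 3 d (18.5% and 15.9%). With a minimum of 1.5-fold, 23 were higher and 1 lower at 4 h (24.1% and 24.5% of tested genes), 32 and 1 at 24 h (19.8% and 22.8%), and 3 higher at 3 d with none lower (11.2% and 10.6%) in the authors' deposited tables. The 3 d change was thus mostly under 1.5-fold.

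**Figure D1:**
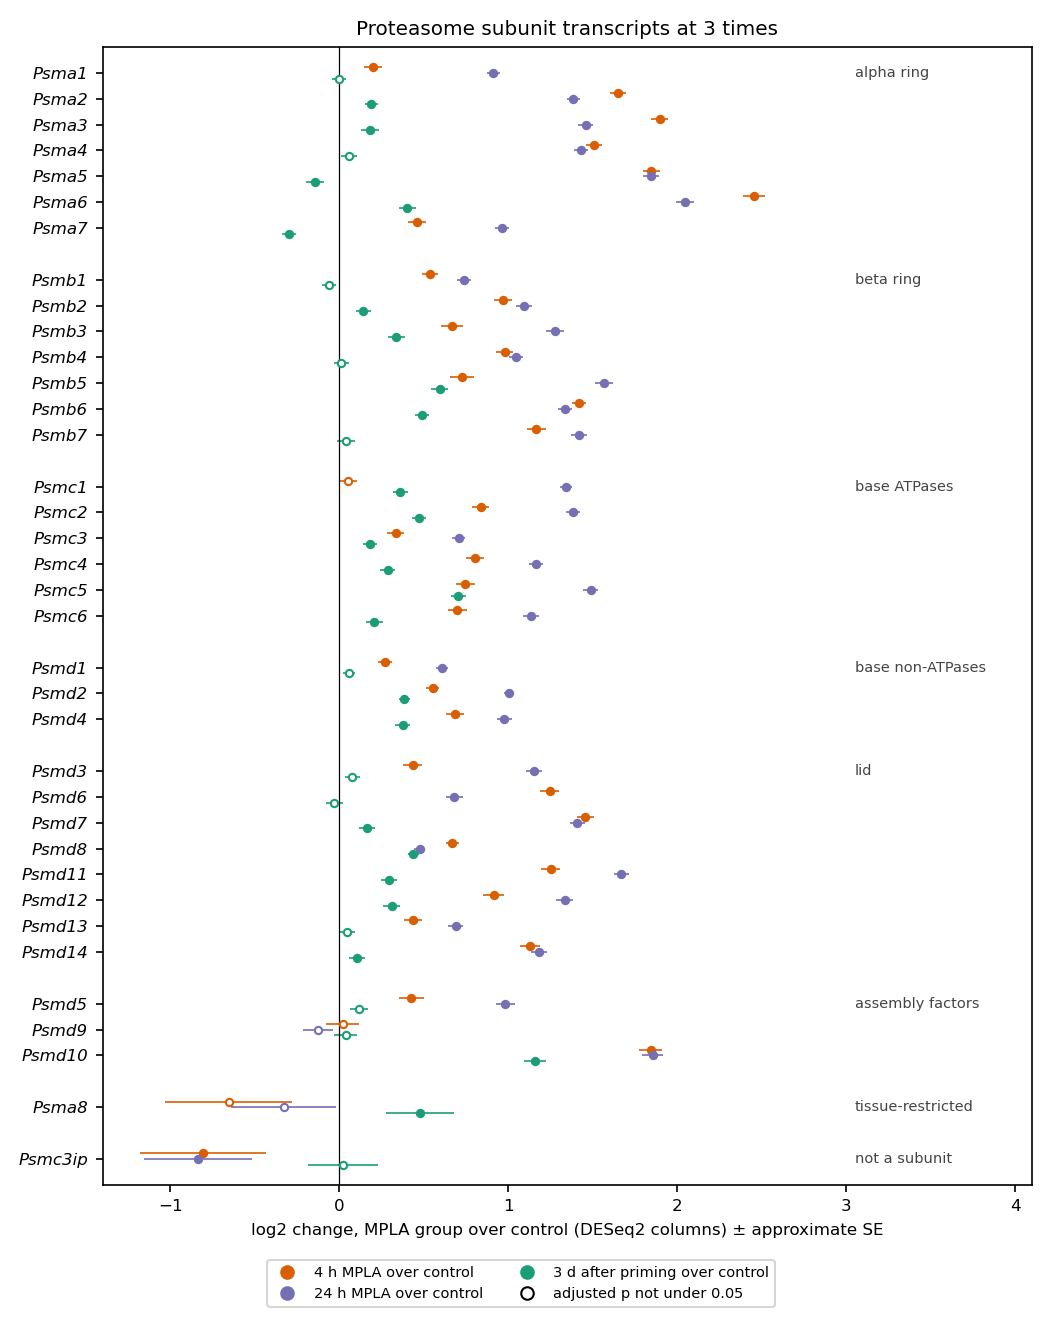
Log2 change of each of the 36 genes (rows, grouped by role) in each MPLA group over control, as DESeq2 values of the authors' deposited tables; bars are the approximate SE or its upper bound, and open points had an adjusted p not under 0.05. Core particle, base and lid subunits lie between 0.05 and 2.46 at 4 h (where edgeR values are lower by about 0.94 and 17 of the 31 were called lower), between 0.48 and 2.05 at 24 h, and between -0.30 and 0.70 at 3 d.

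The size of the change was moderate. Among the 31 core, base and lid subunits, 11 were called and at least 2-fold higher at 4 h in the authors' deposited table, where 18.1% of tested genes were, and 22 at 24 h, where 12.8% were. At 3 d none of the 31 reached 2-fold with DESeq2 (20 of them were called higher at any size), against 6.38% of tested genes in the authors' deposited table. Only 1 subunit at 4 h and 5 at 24 h ranked above 90% of all tested genes in the authors' deposited tables. The 2-fold counts depend on the zero: with edgeR 1 of the 31 was called and at least 2-fold higher at 4 h, 8 at 24 h and none at 3 d in the authors' deposited tables, against 8.8%, 7.57% and 4.49% of listed genes.

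**Figure D2:**
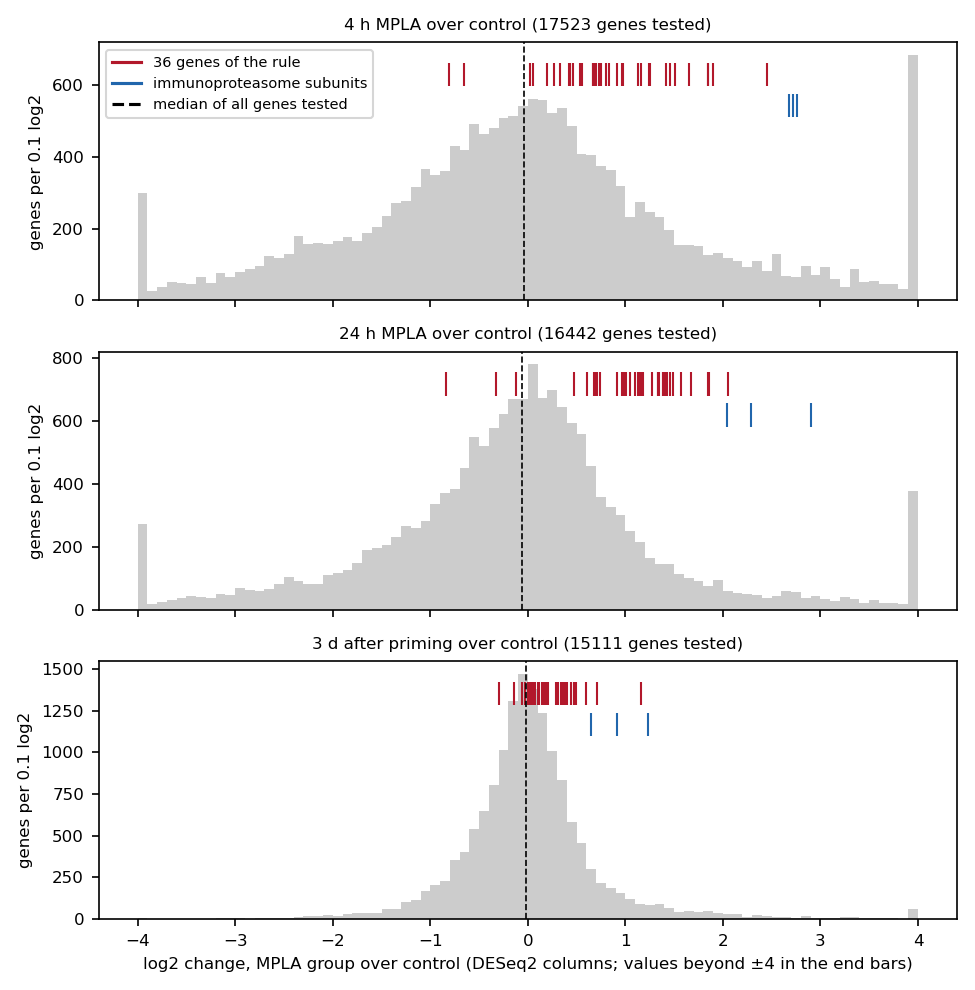
Histograms of the DESeq2 log2 change of all tested genes in the authors' deposited tables (grey, genes per 0.1 log2), with 1 red tick for each of the 36 genes and 1 blue tick for each immunoproteasome subunit; the dashed line is the median tested gene. The red ticks sit mostly right of the median at 4 h and 24 h and close around it at 3 d; with edgeR the 4 h zero lies about 0.94 further right, among the red ticks.

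The alpha ring had the highest median of the roles at 4 h, 1.65, and again at 24 h, 1.43, but 0.06 at 3 d in the authors' deposited tables. Psma6 was the highest of all 36 genes at both early times, with 2.46 (SE at most 0.064) at 4 h, 2.05 (SE at most 0.053) at 24 h and 0.40 (SE 0.050) at 3 d, and both tools called it higher at all 3 times in the authors' deposited tables. Psma3 had 1.90, 1.46 and 0.18 at the 3 times in the authors' deposited tables. Psma5 had 1.85 at both 4 h and 24 h, but fell below control at 3 d, by 0.14 (adjusted p = 0.0149 from DESeq2 in the authors' deposited table). All 3 had their smallest value at 3 d.

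Psma2 (1.65, 1.38 and 0.19) and Psma4 (1.51, 1.43 and 0.06) were likewise smallest at 3 d in the authors' deposited tables. Psma1 and Psma7 stood apart from their ring at 4 h, with 0.20 and 0.46 in the authors' deposited table, both negative with edgeR (-0.74 and -0.47). At 24 h Psma1 had 0.91 and Psma7 0.96 in the authors' deposited table, called higher with both tools. Psma7 was the lowest of the 36 genes at 3 d, at -0.30 (SE 0.043, DESeq2 adjusted p = 2.21e-11), and edgeR called it lower too in the authors' deposited table. The alpha ring, whose proteins stand in the barrel in equal numbers, therefore spanned 0.20 to 2.46 at 4 h and 0.91 to 2.05 at 24 h in the authors' deposited tables.

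In the beta ring, the medians were 0.97, 1.28 and 0.14 at the 3 times in the authors' deposited tables. Among the catalytic subunits, Psmb5, which carries the chymotrypsin-like site, had 0.72 (SE 0.070) at 4 h, 1.57 (SE 0.052) at 24 h and 0.59 (SE 0.053) at 3 d, with an edgeR value of -0.21 at 4 h in the authors' deposited table. Psmb6, with the caspase-like site, had 1.42, 1.34 and 0.49 in the authors' deposited tables, each called higher with both tools. Psmb7, with the trypsin-like site, had 1.17 and 1.42 during MPLA and 0.04 at 3 d (adjusted p = 0.564 from DESeq2 in the authors' deposited table). At 3 d, Psmb5 and Psmb6 thus were called higher with both tools and Psmb7 was not called with either, and whether they differ from Psmb7 was not tested.

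The structural beta subunits lay lower than all 3 catalytic subunits at 24 h, and overlapped them at 4 h and 3 d. Psmb3 had 0.67, 1.28 and 0.34, and Psmb2 had 0.97, 1.09 and 0.14 in the authors' deposited tables. Psmb4 (0.98, 1.05 and 0.01) and Psmb1 (0.54, 0.74 and -0.06) were called at the first 2 times with DESeq2 and not at 3 d in the authors' deposited tables. With edgeR at 4 h, Psmb1 and Psmb3 were called lower (-0.40 and -0.27) and Psmb2 and Psmb4 not called in the authors' deposited table.

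The immunoproteasome counterparts of the catalytic subunits changed more at every time in the authors' deposited tables. At 4 h Psmb5, Psmb6 and Psmb7 (0.72, 1.42 and 1.17) were set against Psmb8, Psmb9 and Psmb10 (2.68, 2.72 and 2.76) in the authors' deposited table. The difference of the log2 changes was -1.95 for Psmb5 minus Psmb8, -1.30 for Psmb6 minus Psmb9 and -1.60 for Psmb7 minus Psmb10 with either tool in the authors' deposited table, with an SE of at most 0.099 that treats both genes as independent. The MPLA effect on Psmb5 was 0.258 times that on Psmb8 on the linear scale there.

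The gaps were smaller at 24 h, -1.33, -0.70 and -0.86 for the same pairs, and at 3 d, -0.64, -0.43 and -0.61, in the authors' deposited tables. Standard subunits thus lay below their counterparts in all 9 of these pairs and times, by more than 6 times the SE in each case. These differences were nearly the same with both tools and compare changes, not levels, so they do not give the makeup of the particles.

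**Figure D3:**
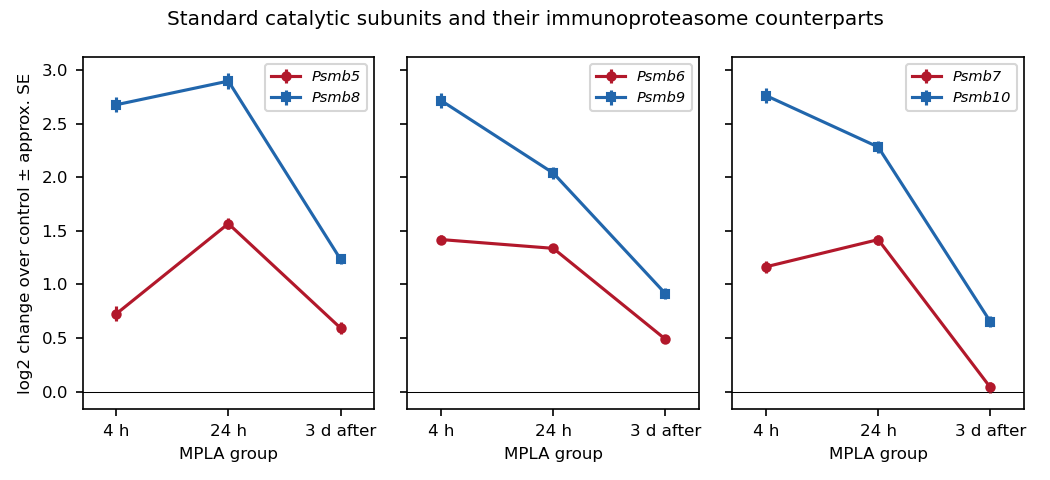
Log2 change over control (vertical axis, DESeq2 values in the authors' deposited tables, bars are the approximate SE or its upper bound) of the standard catalytic subunits Psmb5, Psmb6 and Psmb7 (red) and their immunoproteasome counterparts Psmb8, Psmb9 and Psmb10 (blue) in the 3 MPLA groups. Each red line lies below its blue line at all 3 times. With edgeR the gaps are nearly the same, and Psmb5 at 4 h lies at -0.21.

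The ATPases of the base were lower at 4 h than at 24 h in all 6 cases, with medians of 0.72, 1.25 and 0.32 in the authors' deposited tables. Psmc1 had the widest step: 0.05 (SE 0.051, DESeq2 adjusted p = 0.361) at 4 h, 1.34 (SE 0.036) at 24 h and 0.36 (SE 0.044) at 3 d in the authors' deposited tables, and it was the only core, base or lid subunit not called higher at 4 h with DESeq2. Psmc5 had 0.75, 1.49 and 0.70 in the authors' deposited tables and was the highest of the 31 subunits at 3 d. Psmc2 had 0.84, 1.39 and 0.47, and Psmc3 0.33, 0.71 and 0.18 in the authors' deposited tables. All 6 ATPases were called higher at 24 h with both tools and at 3 d with DESeq2, whereas edgeR called all 6 lower at 4 h in the authors' deposited table.

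The non-ATPase subunits of the base bind ubiquitin and shuttle factors. Psmd4, a ubiquitin receptor, had 0.69, 0.98 and 0.38, and Psmd2, the scaffold that docks shuttle factors, had 0.55, 1.00 and 0.38 in the authors' deposited tables. Psmd1 was among the 6 lowest genes at 4 h and 24 h, with 0.27 and 0.61, and had 0.06 at 3 d in the authors' deposited tables. All 3 were negative with edgeR at 4 h (-0.25, -0.38 and -0.67 for Psmd4, Psmd2 and Psmd1 in the authors' deposited table).

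The lid had medians of 1.02, 1.17 and 0.13 in the authors' deposited tables. Psmd11, which clamps the lid to the core particle, was its highest subunit at 24 h, with 1.25 at 4 h, 1.67 (SE at most 0.043) at 24 h and 0.30 at 3 d in the authors' deposited tables, called higher each time with both tools. The deubiquitinase Psmd14 had 1.13, 1.18 and 0.11 in the authors' deposited tables, the last with a DESeq2 adjusted p of 0.0449 and an edgeR value of -0.02. Its partner in the catalytic dimer, Psmd7, had 1.46, 1.41 and 0.16 in the authors' deposited tables.

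Psmd6 was the only one of the 8 lid members of the rule whose 4 h value exceeded its 24 h value with both tools in the authors' deposited tables. It had 1.24, 0.68 and -0.03, and Psmd8 had 0.67, 0.48 and 0.44 in the authors' deposited tables. By edgeR the 3 values of Psmd8 were -0.27, 0.061 and 0.31 in the authors' deposited tables, so their order turned with the scaling. Psmd12 had 0.91, 1.33 and 0.31, Psmd3 had 0.43, 1.15 and 0.08, and Psmd13 had 0.43, 0.69 and 0.05 in the authors' deposited tables.

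The assembly factors, chaperones that hold the ATPases while the base is built, differed from each other. Psmd10, also known as gankyrin, had 1.84 (SE 0.067), 1.86 (SE 0.061) and 1.16 (SE 0.066) in the authors' deposited tables and was the highest of the 36 genes at 3 d, above 94.7% of tested genes. Psmd5 had 0.43, 0.98 and 0.12, and Psmd9 had 0.02, -0.12 and 0.04 with no DESeq2 call at any time in the authors' deposited tables. Reads of Psmd9 are uncertain, because 25.5% of its exonic bases lie under Gm26745 on the opposite strand and it is not stated whether the counting used strand.

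Both genes that are not part of the somatic particle had wide errors. Psma8 had -0.66 (SE 0.377) and -0.33 (SE 0.310) during MPLA, neither called with DESeq2 but both lower with edgeR, and 0.48 (SE 0.202, DESeq2 adjusted p = 0.0337) at 3 d in the authors' deposited tables. Psmc3ip was the only member called lower with DESeq2 during MPLA, at -0.80 (SE 0.373, adjusted p = 0.0493) and -0.84 (SE 0.319, adjusted p = 0.0149), and had 0.02 at 3 d in the authors' deposited tables. It shares 21.2% of its exonic bases with Mlx on the opposite strand.

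The 3 times were set side by side without a test, since all 3 comparisons share the control libraries. Of the 31 core, base and lid subunits, 22 had a larger log2 change at 24 h than at 4 h with DESeq2 in the authors' deposited tables, and the other 9, 5 of them alpha subunits, had a larger one at 4 h. The order between times depends on each table's zero, and with edgeR 30 were larger at 24 h and only Psmd6 at 4 h in the authors' deposited tables. Relative to 24 h, the change at 3 d was smaller for all 31 with DESeq2 and for 30 with edgeR in the authors' deposited tables, the exception being Psmd8 (0.061 at 24 h and 0.31 at 3 d by edgeR). Being called higher at all 3 times held for 19 of the 31 with DESeq2 in the authors' deposited tables. With both tools it held for 3, namely Psma6, Psmb6 and Psmd11. The share of all genes called higher at all 3 times was not computed, so neither count can be set against it. The SD over the 31 genes was 0.55 at 4 h, 0.37 at 24 h and 0.22 at 3 d in the authors' deposited tables. The SD over all tested genes fell as well, with 1.95, 1.65 and 0.78 by DESeq2, so the narrowing was not particular to the subunits.

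**Figure D4:**
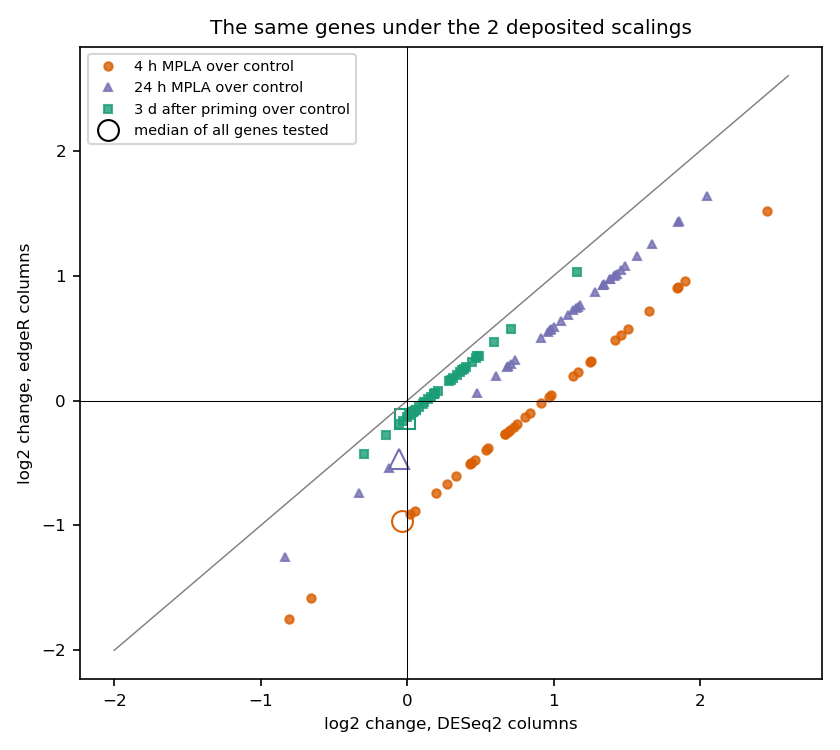
The log2 change of the 36 genes in the DESeq2 columns (horizontal axis) against the edgeR columns (vertical axis) of the authors' deposited tables, coloured by MPLA group; large open symbols are the medians of all tested genes and the grey line marks equal values. Each group lies close to its own parallel below that line, so the order of genes is nearly shared while the zero is not. Many 4 h genes are positive with DESeq2 and negative with edgeR.

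Sequence shared with other genes limits some values. In GENCODE M21 transcripts (GRCm38), 13 of the 36 genes shared no 50-base window with another gene, and 9 shared at least 10% of theirs, mostly with processed pseudogenes. Psmb5 (54.1% of windows, most with Gm3375) and Psma5 (49.96%, most with Gm8394) shared the most, so reads of these genes may have been dropped or split by the authors' counting and their values are uncertain. Psmc1 shared 14.1% of its windows, and Psma6 and Psmd10 none. Besides Psmd9 and Psmc3ip, opposite-strand genes lie over 11.8% of the exonic bases of Psmb7 (Nek6) and 10.1% of those of Psmd13 (Sirt3). On the same strand, Mir686 lies over 12.1% of those of Psmb5. The genes lie on 16 chromosomes, 7 of them on chromosome 11.

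Promoters of the subunits were read from RefSeq (GRCm38.p6), from 250 bases before to 50 bases after the start site. An entry was found for 29 of the 36 genes, all but Psma8, Psmb1, Psmb2, Psmb7, Psmc3, Psmd3 and Psmd7. Motifs were searched on both strands as exact letters. The antioxidant response core TGACNNNGC, the kind of element through which Nfe2l1 (Nrf1) is known to drive proteasome genes when proteolysis is impaired, stood in 5 of 29 genes (17.2%), against 17.1% of the 10172 genes with an entry that were tested at all 3 times. The 5 included Psmb5 and Psmb6, and the 150 bases upstream of their start sites are shown here with the match in capitals, at chr14:54617996-54618145 on the minus strand and chr11:70525207-70525356 on the plus strand.
Psmb5: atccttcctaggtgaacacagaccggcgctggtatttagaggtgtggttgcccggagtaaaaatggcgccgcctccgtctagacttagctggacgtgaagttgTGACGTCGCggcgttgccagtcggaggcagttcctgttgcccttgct
Psmb6: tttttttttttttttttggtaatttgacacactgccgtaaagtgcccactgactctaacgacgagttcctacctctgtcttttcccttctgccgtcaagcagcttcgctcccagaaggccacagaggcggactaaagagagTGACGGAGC

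The motif CCGGAAG, bound by ETS family factors, was the one with the widest gap from other genes in percentage points, in 11 of the 29 genes (37.9%), against 19.8% of the same 10172 genes. Its matches were unevenly placed in the complex: 9 of 14 regulatory particle subunits with an entry held it, against 1 of 11 core particle subunits. The upstream stretches of 5 of the 9 are shown with the match (CCGGAAG or its reverse complement CTTCCGG) in capitals, in the order Psmc1 at chr12:100110052-100110201 (plus strand), Psmd2 at chr16:20651502-20651651 (plus), Psmd6 at chr14:14120946-14121095 (minus), Psmd11 at chr11:80428465-80428614 (plus) and Psmd12 at chr11:107479378-107479527 (plus).
Psmc1: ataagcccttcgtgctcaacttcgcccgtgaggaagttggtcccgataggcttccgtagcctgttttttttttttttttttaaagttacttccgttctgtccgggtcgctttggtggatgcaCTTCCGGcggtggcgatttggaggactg
Psmd2: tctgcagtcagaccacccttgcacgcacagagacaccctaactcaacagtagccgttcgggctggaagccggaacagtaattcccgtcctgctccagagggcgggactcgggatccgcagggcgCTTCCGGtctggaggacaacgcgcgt
Psmd6: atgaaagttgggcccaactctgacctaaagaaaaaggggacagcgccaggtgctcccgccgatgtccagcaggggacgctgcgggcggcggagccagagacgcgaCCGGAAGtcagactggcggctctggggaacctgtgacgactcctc
Psmd11: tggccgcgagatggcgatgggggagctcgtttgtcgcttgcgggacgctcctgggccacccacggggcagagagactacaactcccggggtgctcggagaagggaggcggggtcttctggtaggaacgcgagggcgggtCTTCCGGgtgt
Psmd12: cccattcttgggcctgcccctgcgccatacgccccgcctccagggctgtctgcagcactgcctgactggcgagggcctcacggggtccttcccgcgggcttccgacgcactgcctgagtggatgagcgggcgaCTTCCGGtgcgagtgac

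In these 5 promoters the match begins within 45 bases of the start site. Other carriers had matches as near, such as Psmd13 at -6 and 1 entry of Psmc2 at -24. The 4 h values of the 5 genes shown ranged from 0.05 for Psmc1 to 1.25 for Psmd11 in the authors' deposited table. Whether the motif bears on the changes was not tested. The NF-Y box CCAAT was found in 41.4% of the 29 genes, against 42.5% of the tested genes, and the GC box GGGCGG in 62.1%, against 66.6%. The NF-kappaB motif searched was in none of the 29 genes, against 2.12% of tested genes, a share so low that none among 29 says little. The interferon-stimulated response motif was in 3 (10.3%), against 3.92%. Psmb9 of the immunoproteasome, which has an entry, matched neither of these 2 motifs. The nuclear respiratory factor 1 motif was in 1 (3.45%), against 2.36%. A match is a description of letters and not a binding site.

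**Figure D5:**
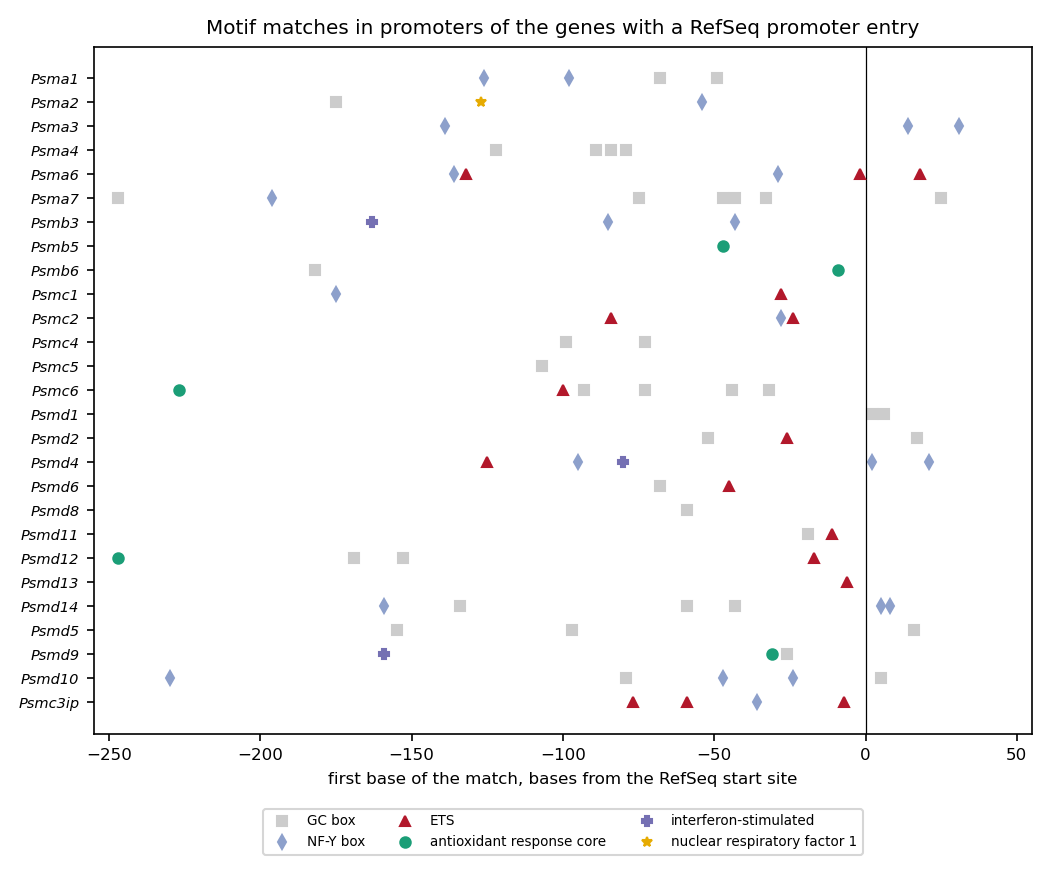
Position of each exact motif match (horizontal axis, bases from the RefSeq start site) in the promoters of the genes with a match, in rows ordered by role. ETS matches (red triangles) fall mostly in the rows of Psmc and Psmd genes, while Psmb5 and Psmb6 carry antioxidant response core matches (green circles) at -47 and -9.

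Genes that work with the particle were described from lists, whose counts stand against 31.8% of tested genes called higher and 31% lower at 4 h, 32.4% and 32.2% at 24 h, and 29.5% and 25.8% at 3 d with DESeq2 in the authors' deposited tables. Their edgeR counts stand against 13.5% of listed genes called higher and 50.1% lower at 4 h. The edgeR shares were 16.2% and 41.8% at 24 h, and 15.5% and 27.7% at 3 d. Listed genes in general were thus called lower more often than higher with edgeR, so a turn of direction in a list is not particular to it. Of the 5 genes for activators and the inhibitor of the core particle, all 5 were called higher at 4 h, 4 at 24 h and 3 at 3 d with DESeq2 in the authors' deposited tables, while edgeR called 3 higher and 1 lower at 4 h. Psme2, a subunit of the interferon-inducible PA28 cap, was the highest, with 3.41, 3.04 and 0.94, and Psmf1, the inhibitor, the lowest at 4 h, with 0.29 by DESeq2 and -0.64 by edgeR in the authors' deposited table. The PA28 subunit Psme1 had 2.13, 2.35 and 0.51, Psme3 had 0.88 at 24 h, and Psme4 1.16 at 24 h in the authors' deposited tables.

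Of the 5 dedicated assembly chaperones listed, 2 were called higher at 4 h and 2 at 24 h, and at 3 d 1 was called higher and 1 lower with DESeq2 in the authors' deposited tables. With edgeR the direction turned: none were called higher and 4 lower at 4 h, 1 and 2 at 24 h, and none and 3 at 3 d in the authors' deposited tables. Pomp, which matures the beta ring, had 0.97, 1.26 and -0.08 in the authors' deposited tables, the last below all 7 beta subunits. Psmg3 had 0.35 and 0.33 during MPLA in the authors' deposited tables, with -0.58 by edgeR at 4 h, and at 3 d Psmg2 had 0.24 and Psmg4 -0.34.

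A list of 15 other genes covered further proteins of or bound to the particle, among them ubiquitin receptors, deubiquitinases and shuttle factors. It includes Adrm1 of the base and Shfm1 of the lid, subunits whose symbols the rule does not match. Of the 15, 12 were called higher and 2 lower at 4 h, 13 and 1 at 24 h, and 10 and 2 at 3 d with DESeq2 in the authors' deposited tables. At 4 h edgeR called 1 higher and 13 lower there, so their direction, too, turned with the scaling in the authors' deposited table. Txnl1 was the highest at 4 h (1.15) and 24 h (1.00), and the shuttle factor Ubqln2 the lowest at 24 h (-0.86) in the authors' deposited tables. Zfand2a had -1.57 at 4 h but 0.53 at 24 h and 0.49 at 3 d in the authors' deposited tables, and Shfm1 was the lowest at 3 d (-0.48).

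Among 11 transcription and activating factors of proteasome genes, 5 were called higher and 4 lower at 4 h, 6 and 3 at 24 h, and 5 and 2 of 10 tested at 3 d with DESeq2 in the authors' deposited tables. With edgeR the balance turned at the first 2 times, to 3 higher and 8 lower at 4 h and 4 higher and 5 lower at 24 h, again from the authors' deposited tables. The gene Nfe2l1, named after its values were seen because its protein is the known driver, had 0.57 (-0.36 by edgeR), 1.29 and 0.49 at 4 h, 24 h and 3 d in the authors' deposited tables. Ddi2, the protease that activates its protein, was the lowest gene of the list called with DESeq2 at every time, with -2.64, -1.29 and -0.42 in the authors' deposited tables. Maff, a small partner factor, was the highest at 4 h and 24 h (3.71 and 2.36), and Nfe2l2, the antioxidant response factor, at 3 d (0.91) in the authors' deposited tables.

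Of 9 genes of VCP, the unfoldase upstream of the proteasome, and its cofactors, 6 were called higher and 2 lower at 4 h, 7 and 1 at 24 h, and 5 and 3 at 3 d with DESeq2 in the authors' deposited tables. Nploc4 was the highest at each time, with 0.73 (-0.21 by edgeR), 1.27 and 0.54, and Ubxn7 the lowest, with -1.003, -0.37 and -0.18 in the authors' deposited tables. With edgeR all 9 were called lower at 4 h in the authors' deposited table. At 24 h edgeR called 7 higher and 2 lower, and at 3 d 3 higher and 4 lower, so the balance turned at 4 h and 3 d.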

How the data were processed

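RNA of 12 macrophage libraries was sequenced from stranded, polyadenylated preparations, per the labels' protocols. The authors worked on build mm10 with TopHat2, HTSeq, bcl2fastq, DESeq, DESeq2 and edgeR, per the submitters' processing notes, which give no versions. Counting settings and the annotation release are not given in the sources used here. The deposited columns are, per the file headers, log2 fold changes with raw and adjusted p-values from the authors' DESeq2 and edgeR runs, an unscaled log2 ratio, and a baySeq likelihood score with its error rate. The deposited log2 sign is control over MPLA and was turned here. Its direction was settled from Tnf, Il6, Il1b, Cxcl10 and Nos2, which are therefore no evidence of direction.

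Calls were read from the DESeq2 adjusted p-value that the authors deposited, under 0.05 within a table, and each table was normalized on its own. A missing adjusted p-value was kept as not tested; all 36 members were tested in all 3 tables, of 17523, 16442 and 15111 tested genes at 4 h, 24 h and 3 d. The approximate SE is the log2 change divided by the normal quantile of the deposited p-value; where that was stored as 0, the SE is an upper bound. Alternatives were the authors' edgeR columns, the unscaled ratio, the baySeq error rate, adjustment over all listed genes, a 1.5-fold minimum, and other member lists. The arithmetic was tested on simulated data. Sequence sharing was computed on 50-base windows of GENCODE M21 transcripts, and promoters came from RefSeq. Analyses used Python 3.11.15, numpy 2.4.6, pandas 2.3.3 and scipy 1.17.1.

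The members and the lists were chosen with earlier results of these data known. The list of ubiquitin and activating enzyme genes is not reported here. Genes named were the 6 highest and 6 lowest members at each time, the catalytic subunits, Psmd14, Psmd4, members that differ in call from their role, the immunoproteasome, and the highest and lowest called gene of each other list; further members are given for completeness of their role, and Nfe2l1, Psme1, Psme3 and Psme4 and the marker genes were named after their values were seen.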

Additional observations from a re-analysis of the deposited data

How the results depend on the processing

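The members' median at 24 h stayed above 0 under every alternative run, and that at 4 h turned with the scaling. At 4 h edgeR called 12 members higher and 21 lower in the authors' deposited table, and the members' median was -0.20 with edgeR and -0.41 with the unscaled ratio. Members called lower at 4 h numbered 2 by the baySeq error rate, and 0 with adjustment over all genes listed, where Psmc3ip lost its call (1 at an unadjusted DESeq2 p under 0.05). They numbered 0 within the core, base and lid, and 0 among members sharing under 10% of windows (a list chosen after the data were seen), 2 lists that do not hold Psmc3ip. At 24 h edgeR called 3 lower and baySeq 2, with 0 in the same 2 shorter lists, and the median was 0.75 with edgeR and 0.65 with the unscaled ratio. At 3 d baySeq called 11 higher and 0 lower, a 1.5-fold minimum left 3 higher and 0 lower, edgeR called 6 lower, and 1 was lower among members sharing under 10% of windows, against 2 in the main result. The 3 d median was 0.051 with edgeR and 1.25 with the unscaled ratio, which carries the greater depth estimated for the 3 d libraries. Single genes changed sign with edgeR in 24 cases at 4 h, in the authors' deposited table: Psma1 (-0.74), Psma7 (-0.47), Psmb1 (-0.40), Psmb3 (-0.27), Psmb5 (-0.21), Psmc1 (-0.88), Psmc2 (-0.1), Psmc3 (-0.60), Psmc4 (-0.13), Psmc5 (-0.19), Psmc6 (-0.24), Psmd1 (-0.67), Psmd2 (-0.38), Psmd3 (-0.50), Psmd4 (-0.25), Psmd5 (-0.51), Psmd8 (-0.27), Psmd9 (-0.91), Psmd12 (-0.022), Psmd13 (-0.50), Psmf1 (-0.64), Psmg3 (-0.58), Nfe2l1 (-0.36) and Nploc4 (-0.21). At 24 h Psmg3 (-0.076) did so, and at 3 d 10 cases did in the authors' deposited table: Psma4 (-0.072), Psmb4 (-0.12), Psmb7 (-0.093), Psmc3ip (-0.10), Psmd1 (-0.073), Psmd3 (-0.052), Psmd5 (-0.014), Psmd9 (-0.092), Psmd13 (-0.083) and Psmd14 (-0.024). In these cases the edgeR value lay below the DESeq2 value by close to the median gap of all tested genes. That gap was 0.94 at 4 h, 0.41 at 24 h and 0.13 at 3 d in the authors' deposited tables, and what sets it was not tested. No paired analysis was possible because the tables hold no values per library, and leaving out each replicate could not be run for the same reason. The depth behind single genes is not known, so precision rests on the deposited p-values alone.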
